A study of Mus musculus with 10 samples.

Results

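The 38 genes described here supply mannose, assemble the lipid-linked N-glycan, transfer it to new proteins and begin its trimming and lectin-assisted folding. They were taken by gene symbol from a list that was chosen with earlier results of these data known. All 38 were found among the 33585 genes of the series. Expression was measured by bulk RNA-seq in tumor-draining lymph nodes (TDLNs) of female BALB/c mice aged 6 weeks with 4T1 tumors, a transplanted mouse mammary carcinoma line. Every mouse received microwave ablation (MWA) of the tumor on day 10, and the inguinal node was collected on day 15. The MWA group (n = 5) received PBS every 2 days, and the MWA+2DG group (n = 5) received 500 mg/kg 2-deoxy-D-glucose (2DG) by intraperitoneal injection on the same schedule. Both groups carried the tumor and the ablation, so the groups differ by the 2DG injections.

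N-glycans are built on the lipid dolichol, starting on the cytosolic face of the endoplasmic reticulum (ER) and ending in its lumen, and are moved as a block to asparagines of new proteins by the oligosaccharyltransferase. Glucosidases then trim the glycan, and the lectins calnexin and calreticulin hold the protein while it folds. 2DG inhibits glycolysis, and as an analog of both glucose and mannose it can also enter this pathway in place of mannose, which makes the transcripts of the pathway a natural question in treated tissue. Lymph nodes hold many cells that glycosylate heavily, above all the antibody-secreting plasma cells.

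No member of the pathway passed a test for a difference between the groups, and most estimates were close to 0. The study's rule (limma P below 0.05 and a log fold change beyond 0.25, here on log2(FPKM + 1)) called 0 of the 37 tested members higher and 0 lower in MWA+2DG nodes. Over all 13334 tested genes it called 2.82%, of which 0.952% were higher and 1.87% lower (127 and 249 genes). With each library rescaled to the same sum the split over all genes turned to 328 higher and 159 lower, and the members called stayed at 0. At an unadjusted limma P below 0.05 alone the count of members was 0, beside 4.25% of all genes, and it was also 0 with limma-trend and with the exact permutation test. With Benjamini-Hochberg adjustment over all genes limma called 0 members and 0 genes of any kind, and the smallest adjusted p over all genes was 0.9955. In 0 of the 37 members did the groups fail to overlap, beside 0.802% of all genes.

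The intervals show how large a difference these 10 nodes could still hold. The log2 fold changes of the members ran from -0.13 for Mpi to 0.29 for Dpm1, with 14 negative and 23 positive, and their median was 0.01, as it was over all genes, of which 47.4% were negative. The sign of such small values depends on scaling, and with each library rescaled to the same sum 4 members were negative and the median over all genes was 0.07. The 95% interval of limma lay within 0.25 of 0 for 22 of the 37 members, beside 24.6% of all genes, and within 0.5 of 0 for 36 members, beside 81.7% of all genes. Dpm1 alone reached further, to 0.77, and the lowest bound was -0.44, for Dpm3. The members' median residual SD was 0.12 on the log2 scale, beside 0.17 over all genes, and the genes were not matched for expression level. Because of the added 1, the log2 fold change understates the change of members with low FPKM, such as Alg13.

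**Figure D1:**
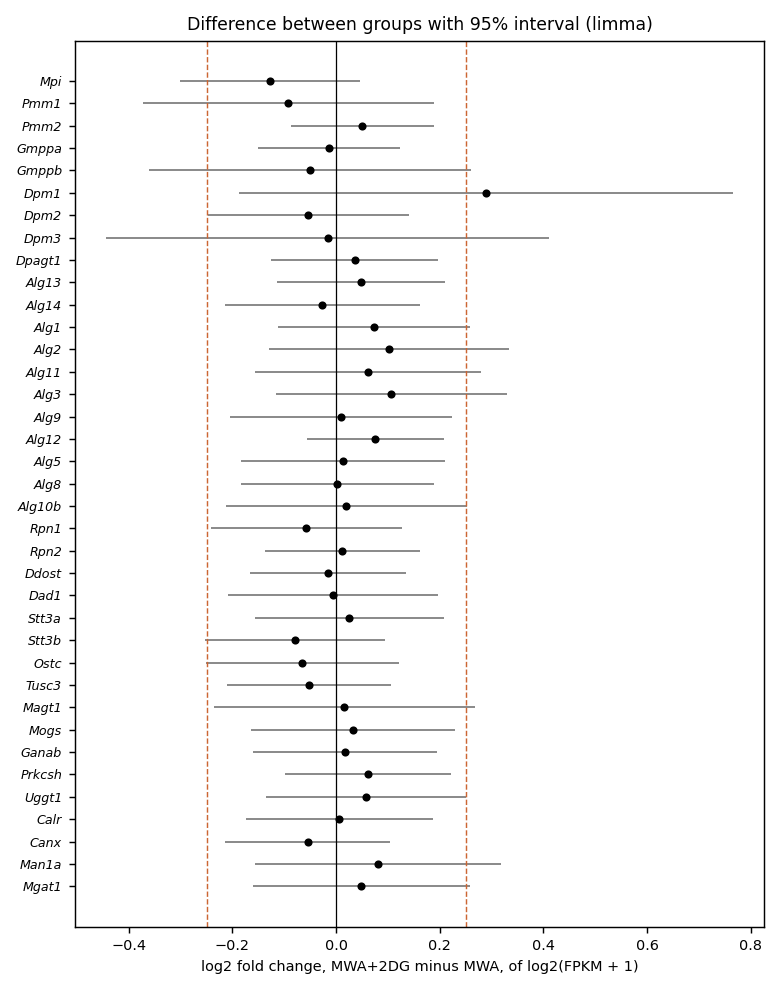
The log2 fold change of each tested member (MWA+2DG minus MWA, on log2(FPKM + 1), 5 nodes per group) is plotted as a point with its 95% limma interval, in the order of the pathway, with dashed lines at 0.25 either side of 0. Every interval crosses 0, and the widest are those of Dpm1 and Dpm3.

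The nodes themselves differed in ways that the groups do not explain. The T cell marker Cd3e stood at 24.2 to 38.8 FPKM across the nodes, and T cells are among the defining cells of this tissue. Replicates 1 and 2 of both groups stood apart from replicates 3 to 5: Alb, the liver's albumin, was at most 0.0486 FPKM in the former and between 35.1 and 102 FPKM in the latter, and no source used here says what set these nodes apart. The sets were chosen after seeing these values, so the limma counts between them are a description and not a test. Between these replicate sets 3.66% of all genes and 0 of the 37 members differed at an adjusted p below 0.05 (limma). At an unadjusted P below 0.05 the sets differed in 4 of 37 members (Mogs, Man1a, Alg9 and Uggt1, each higher in replicates 1 and 2), beside 21.8% of all genes. In bulk tissue, fewer cells of a type and less RNA per cell cannot be told apart.

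Expression levels in FPKM, which is already divided by transcript length, spanned 0.917 (Alg6) to 249 (Calr), with a median of 11.02. The genes of lipid-linked assembly were among the low ones. Their means were 1.48 to 10.95 FPKM for the cytosolic steps, 3.56 to 7.57 FPKM for the lumenal mannosyltransferases and 0.917 to 7.02 FPKM for glucosylation. Mannose supply genes overlapped them, at 5.015 to 17.6 FPKM, as did those of dolichol-phosphate-mannose synthase, at 3.69 to 16.7 FPKM. The subunits of the oligosaccharyltransferase lay between 8.81 and 62.6 FPKM, and the trimming and folding genes between 10.2 and 249 FPKM. Levels varied little from node to node: the highest of the 10 nodes exceeded the lowest by a factor of 1.14 (Pmm2) to 2.79 (Dpm1), with a median of 1.35, and 28 of the 38 genes stayed below 1.5.

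**Figure D2:**
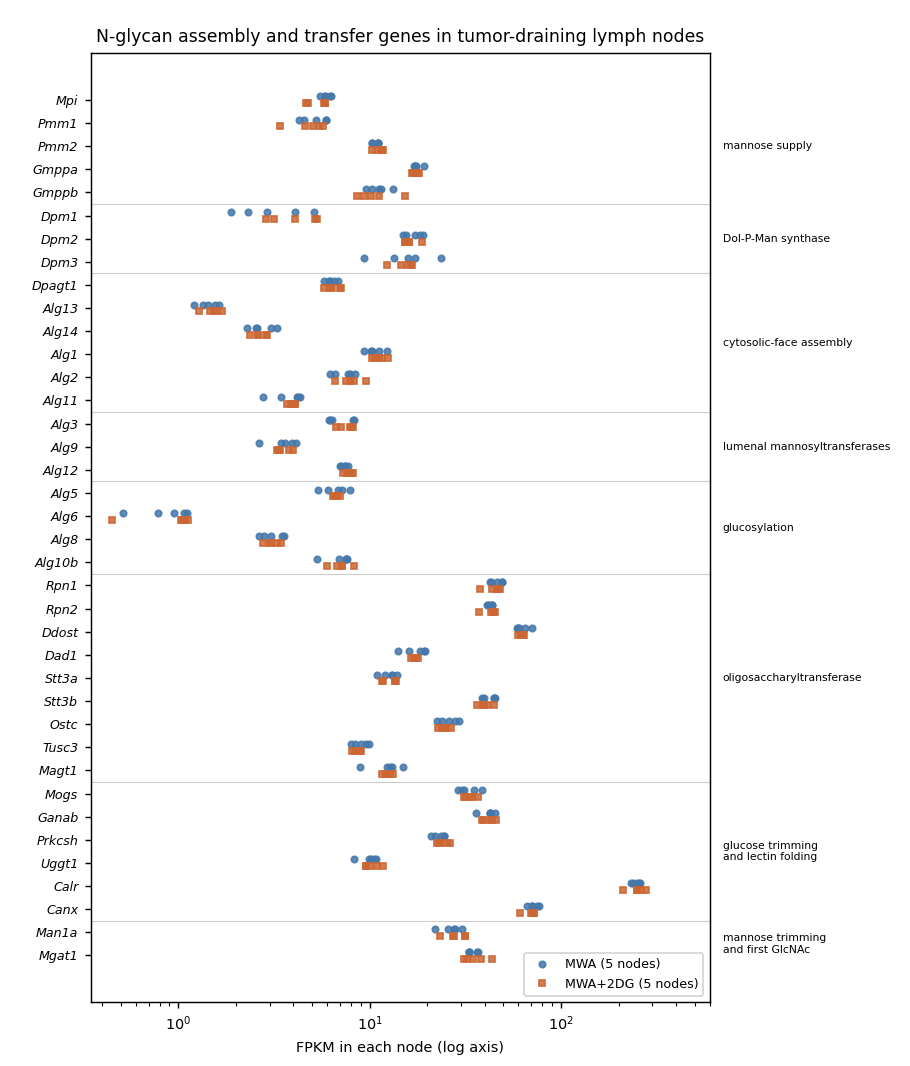
FPKM of the 38 genes in each of the 10 nodes is plotted on a log axis, grouped by role from mannose supply at the top to the Golgi steps at the bottom, with circles for MWA and squares for MWA+2DG. The groups overlap for every tested gene, and the assembly enzymes lie below most subunits of the oligosaccharyltransferase and most folding genes.

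Mpi, the isomerase that links the mannose and fructose phosphates, had the smallest P of all members. Its level in MWA replicates 1 to 5 was 5.88, 6.19, 6.28, 5.51 and 5.86 FPKM, and in MWA+2DG replicates 1 to 5 it was 5.83, 5.85, 4.74, 5.76 and 4.67 FPKM. All 5 MWA+2DG nodes lay below the MWA mean of 5.94 FPKM, with replicates 3 and 5 lowest, but the other 3 lay within the MWA range. The log2 fold change was -0.13 ± 0.08 (SE; limma P = 0.133, adjusted p = 0.9955), and the exact permutation test over the 10 nodes gave p = 0.0873. In replicates 1 and 2 alone the value was -0.040, and in replicates 3 to 5 alone it was -0.19.

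The phosphomannomutases Pmm1 and Pmm2, which turn the mannose phosphate into the form used for GDP-mannose, were both not called. Pmm1 stood at 5.95, 5.27, 4.52, 4.28 and 5.95 FPKM in MWA nodes and at 4.62, 5.05, 5.43, 5.68 and 3.4 FPKM in MWA+2DG nodes. The values interleave, and the lowest belongs to MWA+2DG replicate 5. Pmm2 was the steadiest of all members, at 11.1, 11.1, 10.3, 10.4 and 11.1 FPKM in MWA nodes and 11.5, 11.7, 10.3, 10.98 and 11.6 FPKM in MWA+2DG nodes. Fitted log2 fold changes were -0.09 ± 0.13 for Pmm1 (exact permutation p = 0.540) and 0.05 ± 0.06 for Pmm2 (exact permutation p = 0.238), both with an adjusted p of 0.9955 in limma. Their ratio, Pmm2 over Pmm1, was 2.11 ± 0.244 (SD, n = 5) in MWA and 2.41 ± 0.615 (n = 5) in MWA+2DG nodes, with the value of 3.41 in MWA+2DG replicate 5 above all others.

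GDP-mannose pyrophosphorylase is made of Gmppb, which carries the activity, and Gmppa, which regulates it. Gmppa stood at 17.5, 17.1, 17.2, 17.2 and 19.3 FPKM in MWA nodes and at 18.0, 16.8, 16.7, 18.2 and 17.7 FPKM in MWA+2DG nodes. Gmppb stood at 9.58, 10.3, 11.2, 11.5 and 13.3 FPKM in MWA nodes and at 10.2, 8.56, 9.31, 11.2 and 15.3 FPKM in MWA+2DG nodes. The groups overlap for both genes, and Gmppb was highest in replicate 5 of each group. Between the groups Gmppa differed by -0.01 ± 0.06 on the log2 scale (exact permutation p = 0.762) and Gmppb by -0.05 ± 0.14 (exact permutation p = 0.746), both with a limma adjusted p of 0.9955. The exons of Gmppb overlap those of Rnf123 on the opposite strand, and no source used here gives the strand setting of the authors' quantification. Overlaps on the opposite strand are also annotated for Pmm2 (with Tmem186, mean 7.85 FPKM) and Alg1 (with Eef2kmt, mean 7.29 FPKM).

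The mannose of GDP-mannose is passed to dolichol phosphate by Dpm1, the catalytic subunit of dolichol-phosphate-mannose synthase, with Dpm2 and Dpm3 as its membrane partners. Dpm1 had the largest log2 fold change and the widest interval of all members. It stood at 2.92, 2.32, 4.08, 5.12 and 1.896 FPKM in MWA nodes and at 4.10, 2.87, 5.29, 3.18 and 5.17 FPKM in MWA+2DG nodes. High values occurred in both groups, in MWA replicate 4 and in MWA+2DG replicates 3 and 5, and the groups overlap. The log2 fold change was 0.29 ± 0.22 (P = 0.208, adjusted p = 0.9955, limma), with an exact permutation p of 0.254 over the 10 nodes. Leaving out 1 node gave 0.16 to 0.43, and leaving out replicate 5 of both groups gave 0.09.

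Dpm1 shares exons with Gm20716, an annotated protein-coding read-through gene on the same strand, so the authors' quantification had to divide reads between them. Gm20716 was listed at 0 in exactly the 3 nodes where Dpm1 was highest, and at 3.48 to 14.6 FPKM in the other 7. Summed, both genes came to 10.8 ± 4.31 FPKM (SD, n = 5) in MWA and 7.01 ± 1.70 FPKM (n = 5) in MWA+2DG nodes, the opposite order to Dpm1 alone. The part of this division in the Dpm1 values was not tested.

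**Figure D3:**
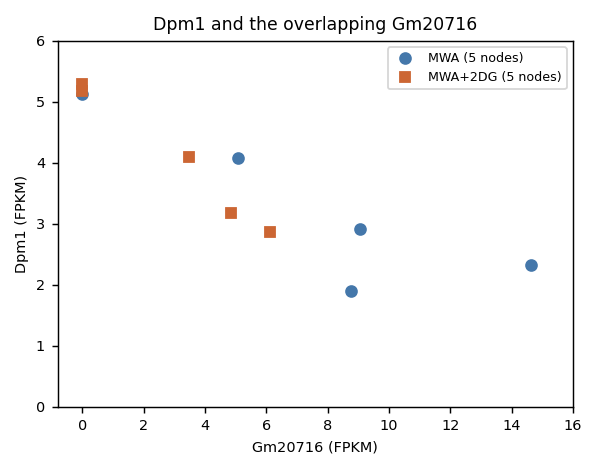
Dpm1 is plotted against Gm20716 in each node, both in FPKM, with circles for MWA and squares for MWA+2DG (5 nodes each). The 3 nodes with Gm20716 at 0 hold the 3 highest Dpm1 values, 5.12 to 5.29 FPKM.

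Dpm2 ranged from 15.0 to 19.0 FPKM in MWA and from 15.4 to 18.8 FPKM in MWA+2DG nodes, with a log2 fold change of -0.05 ± 0.09. Dpm3, the member with the widest spread after Dpm1, ranged from 9.40 to 23.5 FPKM in MWA but only from 12.3 to 16.6 FPKM in MWA+2DG nodes. Its extremes were MWA replicate 4 and MWA replicate 5, and its log2 fold change of -0.02 ± 0.19 became 0.13 without MWA replicate 5 and -0.18 without MWA replicate 4.

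MWA replicate 5 showed a pattern by transcript length. Among members, the 6 with transcripts below 1500 bases (Dpm3, Dpm2, Ostc, Pmm1, Alg3 and Alg5) lay a median of 0.18 above their MWA means on the log2 scale in this node. The 7 with transcripts above 4000 bases (Alg11, Alg10b, Stt3a, Stt3b, Magt1, Uggt1 and Canx) lay a median of 0.24 below them (-0.235). Across the 37 members the correlation of this deviation with log2 transcript length was -0.715, and across 11403 genes with a length it was -0.561, as a description of this library. In the other 9 nodes the correlation lay between -0.078 and 0.223 across all genes and between -0.342 and 0.546 across the members. Without MWA replicate 5 the count of members called was still 0, and the members' median log2 fold change stayed at 0.01.

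**Figure D4:**
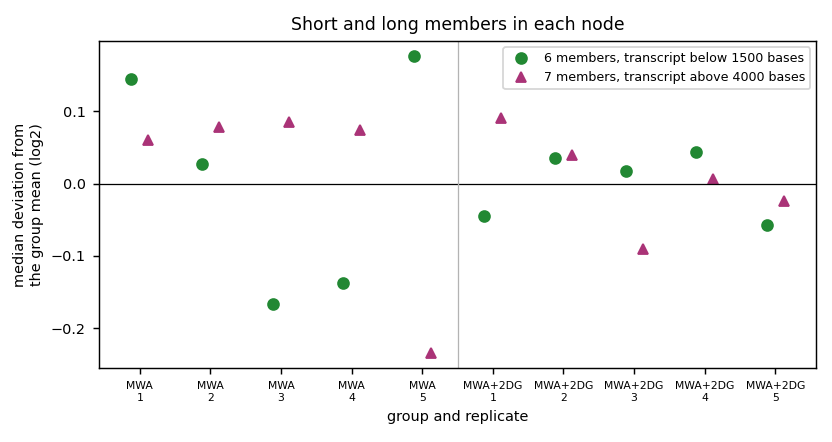
The median deviation from the group mean (log2) is plotted in each node for the 6 shortest members (circles) and the 7 longest (triangles), with the MWA nodes left of the line. In MWA replicate 5 the short members lie at 0.177 and the long ones at -0.235, the widest gap of the 10 nodes.

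Assembly on the cytosolic face begins with Dpagt1, the target of tunicamycin, followed by the paired subunits Alg13 and Alg14, which add the next GlcNAc. Dpagt1 ranged from 5.76 to 6.87 FPKM in MWA and from 5.78 to 7.07 FPKM in MWA+2DG nodes (log2 fold change 0.04 ± 0.07). Alg13, at a mean of 1.48 FPKM, had a log2 fold change of 0.05 ± 0.07, and Alg14, at 2.72 FPKM, one of -0.03 ± 0.09. Alg1, which adds the first mannose, lay at 9.31 to 12.3 FPKM in MWA and 10.3 to 12.5 FPKM in MWA+2DG nodes (0.07 ± 0.08). Alg11, which adds the last mannoses on this face, lay at 2.76 to 4.32 FPKM and 3.71 to 4.10 FPKM (0.06 ± 0.10), with MWA replicate 5 lowest.

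Alg2, which acts between Alg1 and Alg11, was among the 6 members of smallest P. It stood at 6.63, 8.40, 7.72, 7.89 and 6.22 FPKM in MWA nodes and at 9.60, 8.33, 7.57, 7.88 and 6.59 FPKM in MWA+2DG nodes. Only MWA+2DG replicate 1 exceeded the MWA range. Alg2 had a log2 fold change of 0.10 ± 0.11 (P = 0.353, adjusted p = 0.9955, limma), with an exact permutation p of 0.405. It was 0.23 in replicates 1 and 2 alone and 0.02 in replicates 3 to 5 alone. Of the 6 genes of this face, 5 had a positive and 1 a negative log2 fold change, and their median was 0.06.

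In the lumen, Alg3, Alg9 and Alg12 add the remaining mannoses from dolichol-phosphate-mannose, and all 3 had positive log2 fold changes, none called. Alg3 stood at 8.19, 6.11, 6.35, 8.25 and 6.17 FPKM in MWA nodes and at 6.66, 7.13, 7.88, 8.13 and 8.15 FPKM in MWA+2DG nodes. The MWA nodes fell apart into high values in replicates 1 and 4 and low values in the other 3, and every MWA+2DG node lay between these extremes. For Alg3 the log2 fold change was 0.11 ± 0.10 (P = 0.315, adjusted p = 0.9955, limma; exact permutation p = 0.302). In replicates 1 and 2 alone it turned to -0.04. The exons of Alg3 overlap those of Eef1akmt4 on the opposite strand.

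Alg12 stood at 7.47, 7.47, 7.68, 7.09 and 7.01 FPKM in MWA nodes and at 8.24, 7.61, 7.30, 7.99 and 7.84 FPKM in MWA+2DG nodes. Of the 5 MWA+2DG nodes 4 lay above the MWA mean of 7.34 FPKM and 3 above every MWA node, while replicates 2 and 3 lay within the MWA range. The log2 fold change was 0.08 ± 0.06 (P = 0.231, adjusted p = 0.9955, limma), with an exact permutation p of 0.0794 over the 10 nodes and a 95% interval of -0.06 to 0.21. It was 0.07 in replicates 1 and 2 alone and 0.08 in replicates 3 to 5 alone. Without the filter on low values the limma P of Alg12 was 0.0525 at the same log2 fold change, and it was still not called. Alg9 ranged from 2.65 to 4.12 FPKM in MWA and from 3.29 to 3.96 FPKM in MWA+2DG nodes (0.01 ± 0.10).

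Glucosylation caps the glycan with glucoses, which come from the dolichol-phosphate-glucose made by Alg5. Alg5 ranged from 5.39 to 7.89 FPKM in MWA and from 6.46 to 7.00 FPKM in MWA+2DG nodes (log2 fold change 0.01 ± 0.09). Of the glucosyltransferases, Alg6 fell below the filter of a mean of 1 FPKM and was not tested, with 0.515 to 1.11 FPKM in MWA and 0.452 to 1.13 FPKM in MWA+2DG nodes. Alg8 had a log2 fold change of 0.00 ± 0.08 (0.0024) at a mean of 3.11 FPKM. Alg10b, which adds the last glucose, had a log2 fold change of 0.02 ± 0.11 at a mean of 7.02 FPKM.

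The oligosaccharyltransferase exists in a form with the catalytic subunit Stt3a, which works while the protein is being translocated, and a form with Stt3b, which also reaches sites later. Stt3b stood at 38.6, 44.8, 45.1, 44.7 and 39.4 FPKM in MWA nodes and at 44.8, 41.2, 39.5, 39.2 and 36.2 FPKM in MWA+2DG nodes. The 3 MWA replicates numbered 2 to 4 were high together with MWA+2DG replicate 1, and MWA+2DG replicate 5 was the lowest node. Stt3b had a log2 fold change of -0.08 ± 0.08 (P = 0.335, adjusted p = 0.9955, limma; exact permutation p = 0.310). It was 0.05 in replicates 1 and 2 alone and -0.16 in replicates 3 to 5 alone.

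Stt3a stood at 13.2, 13.1, 12.1, 13.9 and 10.9 FPKM in MWA nodes and at 13.7, 11.7, 11.8, 13.6 and 13.5 FPKM in MWA+2DG nodes. The groups overlap, and MWA replicate 5 was the lowest node. Between the groups Stt3a differed by 0.03 ± 0.08 on the log2 scale (limma adjusted p = 0.9955, exact permutation p = 0.722). Stt3b transcripts thus exceeded those of Stt3a in every node, by a factor of 3.39 ± 0.323 (SD, n = 5) in MWA and 3.15 ± 0.350 (n = 5) in MWA+2DG nodes, with overlapping ranges of 2.93 to 3.74 and 2.68 to 3.53.

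Stt3b works with an oxidoreductase subunit, either Magt1 or Tusc3. Magt1 stood at 12.4, 12.8, 13.1, 14.9 and 8.90 FPKM in MWA nodes and at 13.3, 12.2, 11.6, 12.8 and 12.2 FPKM in MWA+2DG nodes. Tusc3 stood at 9.88, 9.06, 8.38, 8.04 and 9.59 FPKM in MWA nodes and at 8.998, 8.71, 8.94, 8.10 and 8.35 FPKM in MWA+2DG nodes. For both genes the MWA+2DG nodes lay inside the MWA range. On the log2 scale Magt1 differed by 0.02 ± 0.11 (limma adjusted p = 0.9986, exact permutation p = 0.921) and Tusc3 by -0.05 ± 0.07 (limma adjusted p = 0.9955, exact permutation p = 0.381). Magt1 exceeded Tusc3 in 9 of the 10 nodes, and the exception was MWA replicate 5, with a ratio of 0.928. Without that node the log2 fold change of Magt1 was -0.09.

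The subunits shared by both forms were steady. Ddost ranged from 58.8 to 70.9 FPKM in MWA and from 59.8 to 64.0 FPKM in MWA+2DG nodes (log2 fold change -0.02 ± 0.07), and Rpn2 from 41.0 to 43.8 FPKM and from 37.5 to 45.4 FPKM (0.01 ± 0.07). Rpn1 had a log2 fold change of -0.06 ± 0.08 at a mean of 45.3 FPKM, and Dad1 one of -0.01 ± 0.09 at 17.3 FPKM. Ostc, a subunit of the Stt3a form, had one of -0.07 ± 0.08 at 25.3 FPKM. In all, 6 of the 9 subunits had a negative and 3 a positive log2 fold change, none beyond 0.08 either way, and the 95% interval lay within 0.25 of 0 for 6 of the 9.

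After transfer, glucosidase I (Mogs) and glucosidase II (Ganab with its partner Prkcsh) remove glucoses, and Uggt1 puts a glucose back on proteins that have not folded. Their log2 fold changes were 0.03 ± 0.09 for Mogs, 0.02 ± 0.08 for Ganab, 0.06 ± 0.07 for Prkcsh and 0.06 ± 0.09 for Uggt1. Mogs ranged from 28.9 to 38.5 FPKM in MWA and from 31.2 to 36.7 FPKM in MWA+2DG nodes, and Ganab from 35.8 to 45.0 FPKM and from 38.6 to 46.0 FPKM. Together with Calr and Canx these genes formed the group with the tightest estimates, as all 6 intervals lay within 0.25 of 0.

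Calr, the soluble lectin calreticulin, was the most abundant member. It stood at 260.1, 237, 234, 251 and 257 FPKM in MWA nodes and at 249.5, 261, 210.0, 250.2 and 277 FPKM in MWA+2DG nodes. Both the lowest and the highest value came from the MWA+2DG group, from replicates 3 and 5. Its log2 fold change was 0.01 ± 0.08 (limma adjusted p = 0.9992, exact permutation p = 0.952), with a 95% interval of -0.17 to 0.19.

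Canx, the membrane-bound lectin calnexin, stood at 76.4, 71.0, 70.9, 75.3 and 66.4 FPKM in MWA nodes and at 72.5, 72.4, 61.1, 69.5 and 71.2 FPKM in MWA+2DG nodes. MWA+2DG replicate 3 was the lowest node, as it was for Calr. Its log2 fold change was -0.06 ± 0.07 (limma adjusted p = 0.9955, exact permutation p = 0.421), with a 95% interval of -0.21 to 0.10. The ratio of Calr to Canx was 3.45 ± 0.237 (SD, n = 5) in MWA and 3.597 ± 0.186 (n = 5) in MWA+2DG nodes.

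Promoters of 32 members are in the RefSeq table (build GRCm38.p6), which gives 250 bases before and 50 after each start, and none is there for Gmppb, Dpagt1, Alg2, Alg11, Ostc and Tusc3. The ER stress element, searched on both strands as CCAAT and CCACG with any 9 bases between them, is the letter pattern through which the unfolded protein response is known to act on ER chaperone genes. It was found in 3 of the 32 promoters (9.38%), those of Calr, Canx and Alg12, beside 0.137% of 27025 promoters of all genes and 0.165% of the 9083 promoters of tested genes. These 3 are shown 5′ to 3′ on the coding strand with the match in capitals, because the same element stands in promoters of stress genes whose levels are given with theirs. All 3 genes lie on the minus strand, at chr8:84846882-84847181 for Calr, chr11:50325624-50325923 for Canx and chr15:88819269-88819568 for Alg12.
Calr: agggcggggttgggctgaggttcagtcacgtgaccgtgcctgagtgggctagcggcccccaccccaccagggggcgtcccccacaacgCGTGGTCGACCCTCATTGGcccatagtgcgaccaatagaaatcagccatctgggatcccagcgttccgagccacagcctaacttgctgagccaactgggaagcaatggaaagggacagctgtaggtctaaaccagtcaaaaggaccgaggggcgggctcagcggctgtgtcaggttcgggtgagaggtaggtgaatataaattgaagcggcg
Canx: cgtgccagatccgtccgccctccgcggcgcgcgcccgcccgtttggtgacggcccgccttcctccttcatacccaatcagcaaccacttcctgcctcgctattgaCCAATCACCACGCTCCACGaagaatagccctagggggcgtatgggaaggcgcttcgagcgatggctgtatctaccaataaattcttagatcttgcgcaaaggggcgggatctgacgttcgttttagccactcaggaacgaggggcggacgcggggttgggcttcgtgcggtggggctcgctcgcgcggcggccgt
Alg12: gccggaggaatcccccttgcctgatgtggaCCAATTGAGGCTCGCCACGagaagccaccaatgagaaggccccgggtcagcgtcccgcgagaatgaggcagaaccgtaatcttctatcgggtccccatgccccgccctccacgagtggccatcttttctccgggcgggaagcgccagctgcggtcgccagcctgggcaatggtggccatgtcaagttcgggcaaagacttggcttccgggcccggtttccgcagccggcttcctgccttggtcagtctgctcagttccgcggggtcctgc

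The match begins 162 bases before the start of Calr, where it reads on the opposite strand, 145 bases before that of Canx and 220 bases before that of Alg12. The log2 fold changes of these genes were 0.01, -0.06 and 0.08, all with intervals inside 0.25 of 0. The same element stands in the promoter of Hspa5, which encodes the ER chaperone BiP, and stands in that of Hsp90b1 on each strand. Neither of these was called, with log2 fold changes of -0.01 ± 0.15 and -0.05 ± 0.14. No other unfolded protein response gene was looked up by name for the element. Hspa5 and Hsp90b1 therefore do not stand for its other holders. The related pattern of ATTGG and CCACG with any base between them, and the core TGACGTGG, were found in 0 of the 32 promoters, beside 0.0991% and 1.00% of tested genes. The ETS core CCGGAAG was found in 11 (34.4%, beside 21.2% of tested genes) and the GC box GGGCGG in 22 (68.8%, beside 68.1%). The median GC content was 60.2% for the members and 60.7% for tested genes.

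In the Golgi, Man1a trims mannose and Mgat1 adds the GlcNAc that opens the way to complex glycans. Man1a ranged from 21.9 to 30.4 FPKM in MWA and from 23.3 to 31.6 FPKM in MWA+2DG nodes (log2 fold change 0.08 ± 0.11). Mgat1 ranged from 33.0 to 36.9 FPKM and from 31.3 to 43.8 FPKM (0.05 ± 0.09), with MWA+2DG replicate 5 highest. Among the members at P below 0.05 between the replicate sets, which were chosen after seeing the data, Man1a differed most. The difference was 0.24 on the log2 scale and did not pass adjustment (adjusted p = 0.134, limma).

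Beyond the members, genes of the other N-glycan steps were counted in the same fit. Of 41 further genes 40 were tested, and the study's rule called 0 of them in either direction, with 0 at an unadjusted limma P below 0.05 and a median log2 fold change of -0.02. The smallest P values belonged to a pair of late Golgi enzymes. Fut8, which adds the core fucose, had a log2 fold change of -0.27 ± 0.12 (limma P = 0.0523, exact permutation p = 0.0714), and all 5 MWA+2DG nodes lay below the MWA mean of 4.94 FPKM. B4galt1, a galactosyltransferase, had one of 0.19 ± 0.09 (limma P = 0.0535, exact permutation p = 0.0556), and all 5 lay above the MWA mean of 21.5 FPKM. Both had an adjusted p of 0.9955 in limma.

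Upstream, the log2 fold changes of smallest P were -0.33 ± 0.18 for Gnpnat1 and -0.09 ± 0.09 for Uap1, enzymes of UDP-GlcNAc supply. Gnpnat1 stood at 5.68 FPKM in MWA replicate 1 and at 2.095 to 3.33 FPKM in the other MWA nodes. In MWA+2DG nodes it stood at 1.97 to 2.53 FPKM. For enzymes of dolichol metabolism the log2 fold changes were -0.07 ± 0.08 for Dolpp1 and -0.06 ± 0.08 for Dhdds. Among the small oligosaccharyltransferase subunits outside the list, Ost4 had one of -0.24 ± 0.11 (exact permutation p = 0.0794) and Tmem258 one of -0.16 ± 0.13. Among ER lectins and glycan quality control genes, they were -0.17 ± 0.14 for Edem1 and -0.10 ± 0.09 for Edem2, which mark misfolded glycoproteins for disposal.

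The oligosaccharyltransferase sits beside the protein translocation channel, whose genes were counted in the same way. Of 17 translocation and signal peptidase genes the rule called 1 lower and 0 higher. It was Spcs1, a signal peptidase subunit, at 46.3 ± 5.71 FPKM (SD, n = 5) in MWA and 38.6 ± 2.98 FPKM (n = 5) in MWA+2DG nodes (log2 fold change -0.25 ± 0.09, limma P = 0.0211, exact permutation p = 0.0238, adjusted p = 0.9955). Sec61g, a channel subunit, followed with -0.31 ± 0.16 (exact permutation p = 0.0635), with MWA replicate 5 highest at 24.4 FPKM. Spcs1 was also highest in that node, at 54.9 FPKM. Both have short transcripts, of 702 bases for Spcs1 and 735 for Sec61g. The part of the length pattern of MWA replicate 5 in these values was not tested. The count called was 0 when replicate 1 or 5 of MWA, or replicate 3 or 5 of MWA+2DG, was left out.

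Of 22 unfolded protein response genes the rule called 2 higher and 1 lower, and with a filter of 5 FPKM, which Chac1 does not pass, it called 2 in all. Ddit3, the stress factor CHOP, stood at 12.3 ± 0.858 FPKM (SD, n = 5) in MWA and 16.2 ± 4.46 FPKM (n = 5) in MWA+2DG nodes (log2 fold change 0.34 ± 0.15, limma P = 0.0398, exact permutation p = 0.0397). Chac1, a glutathione-degrading enzyme downstream of it, stood at 0.675 ± 0.1302 FPKM (n = 5) and 1.48 ± 0.756 FPKM (n = 5) (0.51 ± 0.20). Chac1 passed the filter of 1 FPKM only through the MWA+2DG nodes where it is high, so its call cannot be read as a test. Xbp1, a factor of the response that plasma cells also need, was lower (-0.39 ± 0.15, limma P = 0.0287, exact permutation p = 0.0714). Ddit3 and Xbp1 had an adjusted p of 0.9955. Without MWA+2DG replicate 5, where Ddit3 reached 23.7 FPKM, the count called was 0, without MWA+2DG replicate 1 it was 6, and it was 1 when replicate 3, 4 or 5 of MWA, or replicate 3 of MWA+2DG, was left out. By the same rule 0 of the 37 tested members were called, beside 2.82% of all tested genes.

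**Figure D5:**
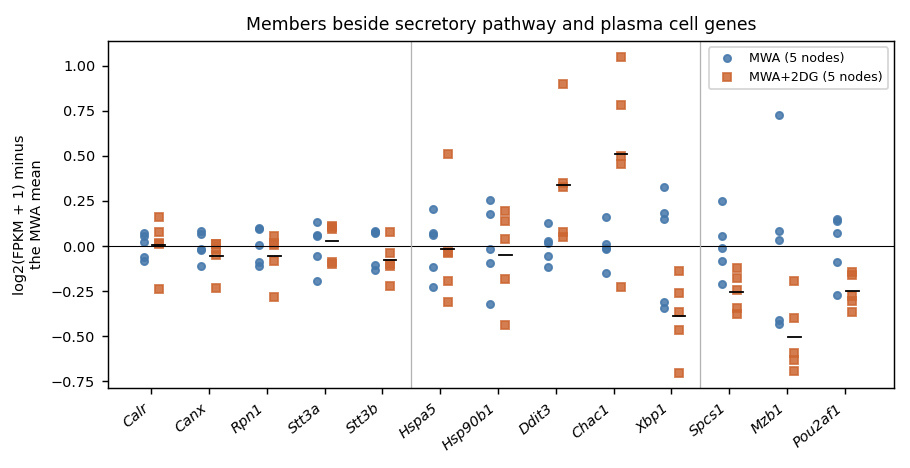
For 5 members and 8 other genes, log2(FPKM + 1) minus the gene's MWA mean is plotted in each node, with circles for MWA, squares for MWA+2DG and a bar at the MWA+2DG mean (5 nodes each). The MWA+2DG means of Calr, Canx, Rpn1, Stt3a, Stt3b, Hspa5 and Hsp90b1 lie near 0. Ddit3 lies higher and Xbp1, Spcs1, Mzb1 and Pou2af1 lower in MWA+2DG nodes at an unadjusted limma P below 0.05. Ddit3, Xbp1, Spcs1, Mzb1 and Pou2af1 were called in this same fit, so their contrast with the members is no test. Chac1, which passed the filter only through its MWA+2DG values, is plotted as a description.

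Cell type markers of the node are given beside the members. Of 9 tested genes on the plasma cell list 8 had negative log2 fold changes and 2 were called lower, Mzb1 and Pou2af1. Pou2af1 barely passed the threshold of 0.25, with a log2 fold change of -0.2503. Mzb1, with a transcript of 904 bases, stood at 240 FPKM in MWA replicate 5 and at 107 to 153 FPKM in the other MWA nodes. The part of the length pattern of that node in this call was not tested. The summed level of the plasma cell list was 516 to 1047 FPKM in MWA and 446 to 704 FPKM in MWA+2DG nodes. Tnfrsf17, a receptor of these cells that was below the filter, ranged from 0.522 to 2.12 FPKM in MWA nodes and from 0 to 1.62 FPKM in MWA+2DG nodes. Of 10 genes of dividing cells all had negative log2 fold changes and 5 were called lower. Their summed levels were 146 to 198 FPKM in MWA and 103 to 166 FPKM in MWA+2DG nodes. Of 7 macrophage genes 6 had negative log2 fold changes and 1, Csf1r, was called lower (-0.30 ± 0.13). All 8 B cell genes had negative and all 7 T cell genes positive log2 fold changes, and 0 of either list were called in limma, with 0 also at an unadjusted P below 0.05 alone. Both tested neutrophil genes, S100a8 and S100a9, were called lower, with a summed level of the list of 11.5 to 75.5 FPKM in MWA nodes, highest in replicate 1, and 1.64 to 15.7 FPKM in MWA+2DG nodes. The adipose list summed to 22.0 and 41.0 FPKM in MWA+2DG replicates 2 and 5 and to at most 8.86 FPKM elsewhere. Over all tested genes 1.87% were called lower and 47.4% had a negative log2 fold change. Every called marker gene had an adjusted p of 0.9955 in limma. The part of these cell types in the members' values was not tested.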

How the data were processed

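Bulk RNA-seq of 10 TDLNs was analysed, 5 MWA and 5 MWA+2DG, grouped by the treatment label. Per the labels, libraries were made from poly(A) RNA with molecular identifiers and strand-marking dUTP, and no source used here says whether the identifiers and the strand entered the quantification. The authors deposited FPKM per gene, 1 table per node, from reads trimmed, aligned with HISAT2 2.0.4 and quantified with StringTie 1.3.4d (the submitters' processing notes also name cutadapt 1.9, UMI-tools and mm9). FPKM divides by transcript length and mapped reads, so depth and counting error are unknown. The smallest FPKM above 0 was 1e-06, and reads were not recovered. P-values measure the spread between these samples, which may be partly technical.

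Of 33643 identifiers 33541 were matched to a symbol, and 57 shared symbols were summed. The 13334 genes whose mean FPKM reached 1 entered a fit by limma 3.58.1 (lmFit and eBayes without covariates, R 4.3.3) of log2(FPKM + 1), with Benjamini-Hochberg adjustment over all of them and two-sided tests. The study names limma and its thresholds, but a log base, pseudocount and filter were chosen here. Single genes were also given a two-sided exact permutation test. Ratios of related members have no test. Transcript lengths are medians of a gene's principal transcripts in GENCODE vM21, used for lengths and overlaps only. Members given in every node were the 6 of smallest P and 5 pairs of related genes, and from each other list the called genes and the 2 of smallest P. Tables and plots were made with Python 3.11.15. The members and lists were chosen with earlier results of these data known, so they support nothing on their own.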

Additional observations from a re-analysis of the deposited data

Results flagged for a closer look

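Among 76 sets of 5 nodes (38 members in each group), 6 held a node whose gap to the nearest of the others exceeded Dixon's 95% critical value of 0.71 of the whole range. Chance alone gives about 1 in 20 such sets. MWA replicate 5 was high for Gmppa, at 19.3 FPKM beside 17.1 to 17.5 FPKM in the other MWA nodes, and low for Ganab, at 35.8 FPKM beside 42.5 to 45.0 FPKM. MWA+2DG replicate 3 was low for Rpn2, at 37.5 FPKM beside 43.3 to 45.4 FPKM in the other MWA+2DG nodes, and low for Canx, at 61.1 FPKM beside 69.5 to 72.5 FPKM. MWA+2DG replicate 2 was high for Dpm2, at 18.8 FPKM beside 15.4 to 16.2 FPKM. MWA+2DG replicate 5 was low for Alg6, at 0.452 FPKM beside 1.04 to 1.13 FPKM, a level below the filter.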

How the results depend on the processing

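The count of members called stayed at 0, by the study's rule and at an adjusted p below 0.05, under all 24 alternatives: a pseudocount of 0.1, no filter or a filter of 5 FPKM, the rescalings, limma-trend, the exact permutation test, no fold change threshold, the replicate number or replicate set as a term, each node left out, and, chosen after seeing the data, replicate 5 of both groups left out and each replicate set alone. Without the filter Alg6 was tested too. Rescaling each library to a sum of 1000000 moved the median over all genes to 0.0682 and that of the members to 0.0767, left 4 members negative, and turned the calls over all genes to 328 higher and 159 lower. Leaving out 1 node gave a members' median of -0.0006 to 0.0345 and 12 to 19 negative members. The labels do not say that a replicate number marks anything shared between the groups, and deviations of same-numbered nodes correlated at 0.331, 0.501, 0.11, 0.0334 and 0.151, so the numbers were not taken as pairs. With the replicate block 0 members and 1 further N-glycan gene were called.

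The further N-glycan genes called numbered 0 to 2 without 1 node (2 when MWA replicate 1 or 4 was left out), 1 under rescaling, quantile normalization, median ratio scaling and replicates 1 and 2 alone, and 3 in replicates 3 to 5 alone. The translocation genes called numbered 0 to 2 without 1 node and 0 under rescaling, quantile normalization and each replicate set alone. The unfolded protein response genes called numbered 0 to 6 without 1 node (0 when MWA+2DG replicate 5 and 6 when MWA+2DG replicate 1 was left out), 1 under quantile normalization and in replicates 1 and 2 alone, and 6 in replicates 3 to 5 alone. The cause of these shifts was not tested.

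No single member was called under any alternative, and 9 members kept their sign throughout, although the filters, limma-trend, the permutation test and the replicate terms leave a log2 fold change as it was. The values that turned under rescaling were Gmppa (0.0484), Gmppb (0.0071), Dpm2 (0.0075), Dpm3 (0.0481), Alg14 (0.0258), Rpn1 (0.0054), Ddost (0.0477), Dad1 (0.0577), Tusc3 (0.0061) and Canx (0.0081), and under quantile normalization Alg9 (-0.0003), Alg8 (-0.0065), Ddost (0.0418), Dad1 (0.006) and Canx (0.0119). In replicates 1 and 2 alone they were Gmppa (0.0043), Dpagt1 (-0.0562), Alg3 (-0.0355), Alg9 (-0.0432), Alg5 (-0.0332), Alg8 (-0.0059), Stt3a (-0.0506), Stt3b (0.0454), Mogs (-0.0463) and Prkcsh (-0.018), and in replicates 3 to 5 alone Dpm3 (0.0375), Alg14 (0.0632), Dad1 (0.0548), Ganab (-0.0174) and Calr (-0.0163). Without 1 node, or without replicate 5 of both groups, the range was, for Alg10b -0.0615 to 0.0686, Alg11 -0.022 to 0.1035, Alg14 -0.0719 to 0.0225, Alg5 -0.0506 to 0.0737, Alg8 -0.0407 to 0.0434, Alg9 -0.0688 to 0.0533, Calr -0.0336 to 0.0663, Dad1 -0.0768 to 0.0371, Ddost -0.0398 to 0.0267, Dpm2 -0.1022 to 0.006, Dpm3 -0.1776 to 0.1984, Ganab -0.0352 to 0.0482, Gmppa -0.0285 to 0.0167, Gmppb -0.1713 to 0.0214, Magt1 -0.0893 to 0.0814, Mgat1 -0.0383 to 0.0953, Mogs -0.0106 to 0.0907, Pmm1 -0.1471 to 0.0498, Rpn2 -0.0088 to 0.0589, Stt3a -0.0405 to 0.0589, and for Uggt1 -0.0018 to 0.0846. FPKM keeps no depth, so precision rests on the spread among the 5 nodes per group. In limma, eBayes also draws on the spread of all tested genes.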
